A study of Rattus norvegicus with 16 samples.

Results

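The 10 genes described here mark the macrophages of the brain and were followed through RNA-seq libraries of rat hippocampus and hypothalamus. The microglial and shared markers were Cx3cr1, P2ry12, Csf1r, Aif1, Tmem119, Cd68, Trem2 and Lrrc33, and the border macrophage markers were Mrc1 and Cd163. Each was taken by its symbol, at the locus with the highest mean level. All 10 were found in both tables, among 16223 symbols (18087 loci) for hippocampus and 16183 symbols (17762 loci) for hypothalamus. The rats were male Sprague Dawley animals, given fructose for 6 weeks or left untreated, and the labels used here give no age. Hippocampus was compared as 4 fructose and 4 control libraries, and hypothalamus as 3 fructose and 4 control libraries, because fructose replicate 4 of the hypothalamus has no column in the table used here. The values are FPKM (fragments scaled to transcript length and to the mapped total of the library), so levels of different genes can be set side by side per length.

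Microglia are the resident macrophages of brain tissue, and they depend on the receptor Csf1r for survival. Border macrophages are a related population that lines the meninges, the perivascular spaces and the choroid plexus. They share Csf1r, Aif1 and Cd68 with microglia but carry the scavenger receptors Mrc1 (CD206) and Cd163, which resting microglia largely lack. P2ry12, an ADP receptor, and Tmem119, a membrane protein, are used to tell microglia from other macrophages, while the fractalkine receptor Cx3cr1 is highest in microglia and lower in border macrophages.

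Promoters are shown for 5 members: the border markers Mrc1 and Cd163, the microglial Cx3cr1 that they are set against, and Cd68 and Lrrc33. The mean fructose levels of Cd68 and Lrrc33 lay on opposite sides of the control mean in the 2 regions. The single libraries of Cd68 overlapped in both regions and those of Lrrc33 in hypothalamus, and neither gene passed the test. The sequences are RefSeq's on build GRCr8, each 300 bases long, with 250 bases before the gene's start and 50 after it, read on the gene's strand. The expression tables were made on the older build rn5, so no coordinate links the sequences to the tables. RefSeq promoters were matched for 7 of the 10 members, with Lrrc33 listed under the symbol Nrros. Mrc1 lies at chr17:82157475-82157774 on the plus strand, Cd163 at chr4:158770524-158770823 on the plus strand, Cx3cr1 at chr8:128677017-128677316 on the minus strand, Cd68 at chr10:54882392-54882691 on the minus strand and Lrrc33 at chr11:82133475-82133774 on the plus strand. Capitals mark matches on either strand to GAGGAA, the core read by the macrophage factor PU.1, or to TGANTCA. The latter is a loose form of the AP-1 motif, in which N is any base.
Mrc1: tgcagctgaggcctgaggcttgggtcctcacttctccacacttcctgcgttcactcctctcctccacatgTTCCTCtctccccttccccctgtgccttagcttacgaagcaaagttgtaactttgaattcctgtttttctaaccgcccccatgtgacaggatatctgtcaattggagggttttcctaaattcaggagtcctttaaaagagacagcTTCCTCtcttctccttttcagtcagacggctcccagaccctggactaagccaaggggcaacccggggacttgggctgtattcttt
Cd163: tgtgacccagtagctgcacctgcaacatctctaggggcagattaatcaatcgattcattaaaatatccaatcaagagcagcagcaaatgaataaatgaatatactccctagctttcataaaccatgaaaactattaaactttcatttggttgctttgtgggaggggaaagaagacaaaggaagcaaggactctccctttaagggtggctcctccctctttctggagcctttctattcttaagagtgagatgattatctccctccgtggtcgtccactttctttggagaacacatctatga
Cx3cr1: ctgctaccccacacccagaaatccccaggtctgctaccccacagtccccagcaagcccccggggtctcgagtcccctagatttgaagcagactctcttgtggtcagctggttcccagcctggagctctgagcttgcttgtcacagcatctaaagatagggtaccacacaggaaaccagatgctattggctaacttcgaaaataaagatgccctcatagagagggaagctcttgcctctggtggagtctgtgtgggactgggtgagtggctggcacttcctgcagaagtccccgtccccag
Cd68: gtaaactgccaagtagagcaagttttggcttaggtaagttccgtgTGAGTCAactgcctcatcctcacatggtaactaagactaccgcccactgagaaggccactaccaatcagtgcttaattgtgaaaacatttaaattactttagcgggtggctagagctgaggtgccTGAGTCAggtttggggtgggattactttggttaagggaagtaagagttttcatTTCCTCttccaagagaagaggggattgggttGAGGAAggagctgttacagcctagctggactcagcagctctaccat
Lrrc33: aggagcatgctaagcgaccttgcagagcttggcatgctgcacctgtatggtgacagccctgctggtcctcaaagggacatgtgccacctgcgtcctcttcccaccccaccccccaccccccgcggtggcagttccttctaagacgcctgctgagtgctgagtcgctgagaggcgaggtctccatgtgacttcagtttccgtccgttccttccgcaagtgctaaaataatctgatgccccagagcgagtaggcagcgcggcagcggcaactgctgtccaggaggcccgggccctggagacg

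GAGGAA was found in the promoters of Mrc1, Csf1r, Cd68 and Trem2, which is 4 of the 7, and in 27.6% of all 33469 promoters of that length. Mrc1 held 2 matches, as did Csf1r and Cd68, and Trem2 held 1. TGANTCA was found in those of Cd68, with 2 matches, and Trem2, with 1, and in 7.33% of all promoters. Both matches in Cd68 read TGAGTCA, and that in Trem2 read TGAATCA. No match of the motifs overlapped another, and these letters were not found in the windows of Cx3cr1, Lrrc33 or Cd163. The border markers did not share a motif of this pair: Mrc1 held GAGGAA and Cd163 held neither.

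The libraries carried the markers of their labelled tissue. The summed level of a hypothalamic neuron list lay between 3956 and 9666 FPKM in the hypothalamus libraries and between 8.71 and 36.4 FPKM in the hippocampus libraries, and a hippocampal neuron list lay between 155.0 and 184 FPKM in hypothalamus and between 328 and 605 FPKM in hippocampus. The replicate 1 libraries stood apart in both regions: the fructose and control libraries of that number correlated at 0.985 across loci in hippocampus and 0.98 in hypothalamus, and with the other libraries at 0.84 to 0.896 and 0.88 to 0.909. Among the other libraries the correlations lay between 0.934 and 0.979 in hippocampus, and between 0.956 and 0.979 in hypothalamus. The tables give no read counts, so the depth behind these values is unknown. The labels do not say that the libraries come from separate animals, so p-values measure the spread between these samples.

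No member passed the test in either region. The test was limma on log2(FPKM + 1) over every locus with a mean of at least 1 FPKM, with Benjamini-Hochberg adjustment at 0.05, and 9 of the 10 members passed that filter in each region, the exception being Cd163. Among all loci it called 0 of 11385 in hippocampus (0%), where 92 (0.808%) had an unadjusted p under 0.05. In hypothalamus it called 1 of 11498 (0.0087%), the zinc transporter gene Slc39a12, which is no member, and 361 (3.14%) had an unadjusted p under 0.05. The adjusted p of each of the 9 tested members was 1.00 in both regions. Over the 8 microglial and shared members, 3 log2 fold changes were positive and 5 negative in hippocampus, with a median of -0.01, and 4 were positive and 4 negative in hypothalamus, with a median of -0.03. Over all loci tested the medians were -0.0038 (48.6% positive) and 0.0065 (51.5% positive).

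In control libraries the members spanned a wide range of levels per length. In hippocampus, the calcium-binding protein gene Aif1 (IBA1) was highest at 42.7 ± 2.99 FPKM, and Csf1r followed at 24.8 ± 1.76, Cx3cr1 at 17.1 ± 2.36 and P2ry12 at 12.9 ± 3.20 (SD, n = 4 each). Tmem119 at 9.47 ± 1.5, Trem2 at 6.62 ± 0.706, Lrrc33 at 2.39 ± 0.322, Mrc1 at 2.37 ± 2.67, Cd68 at 1.16 ± 0.521 and Cd163 at 0.504 ± 0.583 FPKM came after. The SD ranges of neighbours overlapped from Cx3cr1 through P2ry12 to Tmem119, and from Lrrc33 through Mrc1 and Cd68 to Cd163, and were apart elsewhere in that order. In hypothalamus controls Csf1r led at 39.2 ± 2.37 FPKM, Aif1 followed at 27.3 ± 7.48 and P2ry12 at 24.4 ± 1.12, and Cd163 was again lowest at 0.665 ± 0.462 FPKM (SD, n = 4 each). Cd68 stood higher in that table, at 5.98 ± 0.878 FPKM (SD, n = 4), but the tables were normalized separately and levels across them were not tested.

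**Figure D1:**
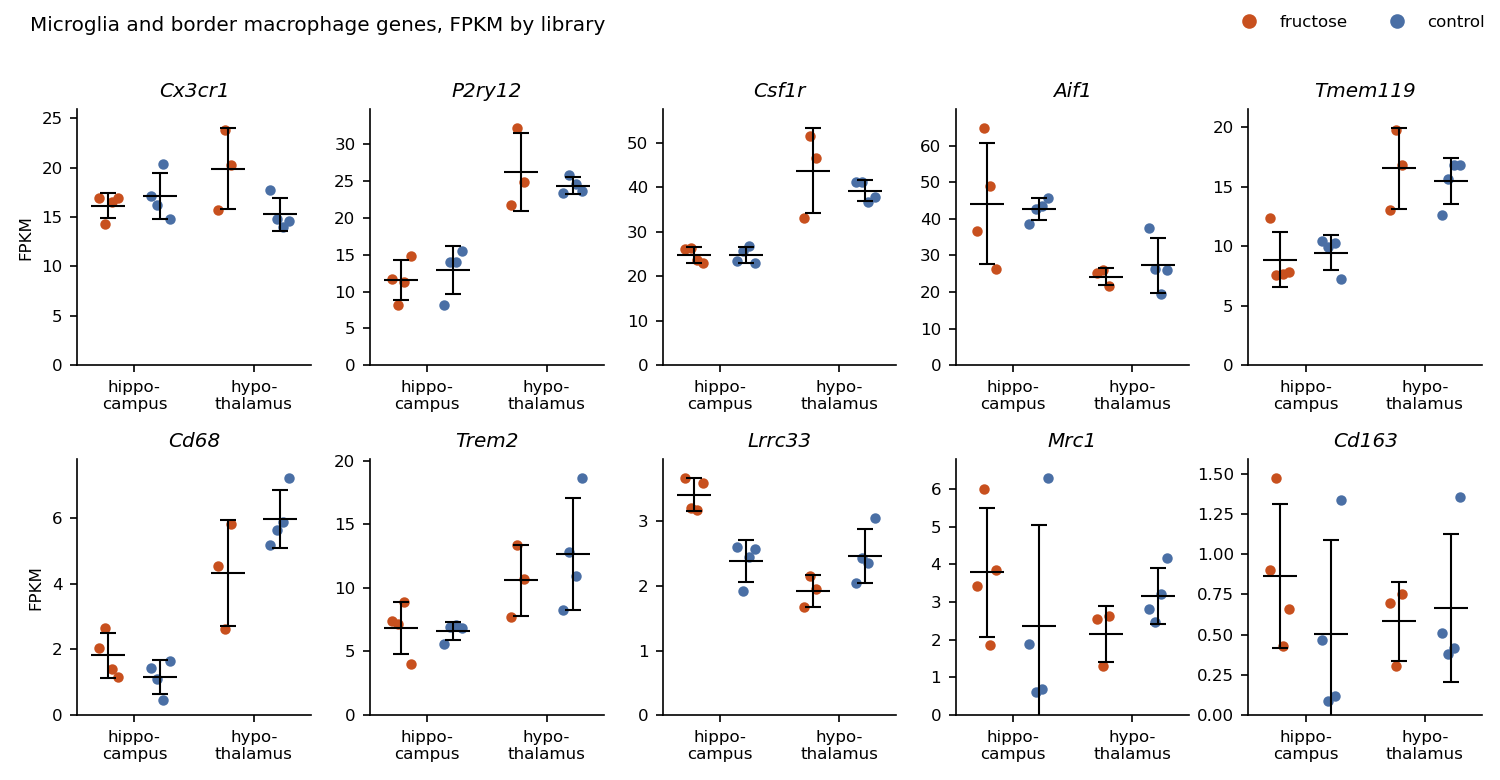
FPKM of each of the 10 members (one panel each, vertical axis from 0) in every fructose and control library of hippocampus and hypothalamus, with points for libraries, and bars for the group mean and SD, which are clipped at 0. Lrrc33 in hippocampus, with fructose libraries between 3.18 and 3.67 FPKM and control libraries between 1.92 and 2.61 FPKM, is the only panel and region in which the groups do not overlap.

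Cx3cr1 is the receptor for the neuronal chemokine Cx3cl1. In hippocampus it measured 16.9, 14.2, 16.5 and 16.9 FPKM in fructose libraries 1 to 4, against 17.1, 16.3, 20.3 and 14.8 FPKM in control libraries 1 to 4. The groups overlapped, with the highest library a control and the lowest a fructose one. The log2 fold change was -0.07 ± 0.12 (limma, SE; 95% interval -0.35 to 0.20; unadjusted p = 0.558). In hypothalamus it measured 15.7, 23.8 and 20.3 FPKM in fructose libraries 1 to 3, against 17.8, 14.8, 14.0 and 14.6 FPKM in control libraries 1 to 4. Fructose replicates 2 and 3 lay above every control library, and fructose replicate 1 lay among the controls. The log2 fold change there was 0.35 ± 0.17 (limma, SE; 95% interval -0.04 to 0.73; unadjusted p = 0.0719), and it was 0.57 without both replicate 1 libraries and 0.21 without fructose replicate 2, without passing the test in any of these fits.

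P2ry12 and Tmem119 gave no shift larger than their spread. P2ry12 measured 11.7, 8.22, 11.3 and 14.9 FPKM in fructose hippocampus and 8.23, 14.0, 14.0 and 15.5 FPKM in control hippocampus, for a log2 fold change of -0.14 ± 0.23 (limma, SE). The lowest values of both groups were close to each other and the groups overlapped. In hypothalamus it measured 21.8, 32.1 and 24.9 FPKM with fructose and 23.4, 25.9, 24.5 and 23.6 FPKM in controls, for a log2 fold change of 0.09 ± 0.15. Fructose replicate 2 held the highest value of that region and fructose replicate 1 the lowest. Tmem119 averaged 8.87 ± 2.32 FPKM with fructose and 9.47 ± 1.5 FPKM in controls in hippocampus (SD, n = 4 each), with a log2 fold change of -0.10 ± 0.18. In hypothalamus its means were 16.5 ± 3.37 FPKM (n = 3) and 15.5 ± 1.97 FPKM (n = 4), with a log2 fold change of 0.08 ± 0.17.

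Csf1r, the receptor for the survival factors Csf1 and Il34, was the steadiest member in hippocampus. It measured 26.1, 26.4, 23.6 and 22.9 FPKM in fructose libraries, against 23.5, 25.6, 26.8 and 23.1 FPKM in controls, and the 2 groups covered the same range. The log2 fold change was -0.00064 ± 0.098 (limma, SE), with a 95% interval of -0.23 to 0.22. A further locus carries the same symbol in each table, so reads may be split between them; in hippocampus that locus ranged from 8.0 to 11.4 FPKM with fructose and from 7.84 to 10.4 FPKM in controls. In hypothalamus the higher locus measured 33.2, 51.5 and 46.6 FPKM with fructose and 41.2, 41.3, 36.6 and 37.8 FPKM in controls. Both the highest and the lowest library there were fructose ones, and the log2 fold change was 0.13 ± 0.16.

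Aif1 varied most among the fructose hippocampus libraries. They measured 36.7, 64.7, 48.9 and 26.2 FPKM, on both sides of the controls at 38.6, 42.7, 43.5 and 45.8 FPKM. The fructose mean was 44.1 ± 16.6 FPKM against 42.7 ± 2.99 FPKM in controls (SD, n = 4 each), and the log2 fold change was -0.02 ± 0.25 (limma, SE). In hypothalamus the spread lay with the controls, at 37.5, 26.2, 19.4 and 26.0 FPKM, while the fructose libraries measured 25.1, 26.1 and 21.6 FPKM, all inside the control range.

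Lrrc33 (now Nrros) encodes a membrane protein that holds latent TGF-beta on macrophages and microglia. In hippocampus it measured 3.67, 3.21, 3.18 and 3.6 FPKM in fructose libraries 1 to 4, against 2.61, 1.92, 2.45 and 2.57 FPKM in control libraries 1 to 4. Every fructose library lay above every control library, and no other member's groups were set apart in either region. Among all loci tested in hippocampus, 29 (0.255%) were set apart in that direction and 76 (0.668%) in either. In hypothalamus, where no member was set apart, 201 (1.75%) lay higher and 383 (3.33%) in either direction without overlap. The separation at Lrrc33 was known when the gene was chosen. The log2 fold change was 0.39 ± 0.12 (limma, SE; 95% interval 0.12 to 0.65), with an unadjusted p of 0.0105 and an adjusted p of 1.00. A second Lrrc33 locus measured 0.223, 1.09, 0.153 and 0.389 FPKM with fructose and 0.217, 0.993, 0.902 and 1.37 FPKM in controls. With the loci summed, the values were 3.89, 4.30, 3.34 and 3.99 FPKM with fructose and 2.83, 2.91, 3.35 and 3.95 FPKM in controls. The groups then overlapped, with control 3 above fructose replicate 3 and control 4 above fructose replicates 1 and 3, and the log2 fold change was 0.20. In hypothalamus, where the table has 1 Lrrc33 locus, the values were 1.67, 2.16 and 1.95 FPKM with fructose and 2.05, 2.43, 2.35 and 3.05 FPKM in controls. Fructose replicates 1 and 3 lay below all controls and replicate 2 among them, with a log2 fold change of -0.24 ± 0.15 (limma, SE; unadjusted p = 0.138).

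Cd68, a lysosomal glycoprotein of phagocytes, was low in hippocampus. It measured 2.05, 2.66, 1.41 and 1.15 FPKM with fructose, against 1.45, 1.09, 0.464 and 1.65 FPKM in controls. The 2 highest libraries were fructose ones and the lowest, at 0.464 FPKM, was control replicate 3. In limma the log2 fold change was 0.39 ± 0.24 (SE; 95% interval -0.17 to 0.94; unadjusted p = 0.148), and 0.21 without control replicate 3 and 0.25 without fructose replicate 2. In hypothalamus Cd68 measured 4.54, 2.63 and 5.83 FPKM with fructose, against 5.18, 5.64, 5.89 and 7.22 FPKM in controls. The 2 lowest libraries were fructose replicates 2 and 1, and replicate 3 lay within the control range. In limma the log2 fold change was -0.43 ± 0.23 (SE; 95% interval -0.96 to 0.10; unadjusted p = 0.0992) and -0.17 without fructose replicate 2.

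Trem2, a lipid-sensing receptor that signals through Tyrobp, averaged 6.86 ± 2.03 FPKM with fructose and 6.62 ± 0.706 FPKM in controls in hippocampus (SD, n = 4 each). In hypothalamus it averaged 10.6 ± 2.8 FPKM (n = 3) and 12.6 ± 4.41 FPKM (n = 4). The log2 fold changes were 0.01 ± 0.20 and -0.21 ± 0.28 (limma, SE), and the groups overlapped in both regions.

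The border macrophage markers varied widely between libraries of a group. Mrc1 had mean shifts of opposite sign in the 2 regions, while Cd163 shifted by less than its error in hypothalamus. Mrc1, an endocytic mannose receptor, measured 3.43, 6.01, 1.85 and 3.86 FPKM in fructose hippocampus libraries 1 to 4, against 1.88, 0.622, 0.700 and 6.28 FPKM in control libraries 1 to 4. Controls 2 and 3 lay below all fructose libraries, control 1 sat beside the lowest of them, and control 4 held the highest value of the region. In limma the log2 fold change was 0.72 ± 0.49 (SE; 95% interval -0.40 to 1.85; unadjusted p = 0.179). It was 1.19 without control replicate 4 and 0.47 without control replicate 2. In hypothalamus Mrc1 measured 2.53, 1.29 and 2.64 FPKM with fructose, against 2.8, 2.47, 3.22 and 4.16 FPKM in controls. Fructose replicate 2 was the lowest library and control replicate 4 the highest, and control replicate 2 kept the groups from separating. In limma the log2 fold change there was -0.41 ± 0.22 (SE; 95% interval -0.92 to 0.09; unadjusted p = 0.0968), and -0.20 without fructose replicate 2.

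Cd163, the haemoglobin scavenger receptor, measured 0.903, 1.47, 0.428 and 0.659 FPKM in fructose hippocampus and 0.467, 0.0886, 0.121 and 1.34 FPKM in control hippocampus. The libraries fell in an order like that of Mrc1: in fructose, replicate 2 was highest and replicate 3 lowest for both genes, and in controls replicate 4 was highest and replicate 2 lowest. In hypothalamus Cd163 measured 0.697, 0.302 and 0.754 FPKM with fructose, against 0.510, 0.377, 0.420 and 1.35 FPKM in controls. Fructose replicates 1 and 3 lay above controls 1 to 3, and control replicate 4 lay above all fructose libraries. Its means were under 1 FPKM in both tables. With no filter on low values the log2 fold changes were 0.35 ± 0.27 in hippocampus (limma, SE; unadjusted p = 0.227) and -0.05 ± 0.21 in hypothalamus (unadjusted p = 0.825).

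**Figure D2:**
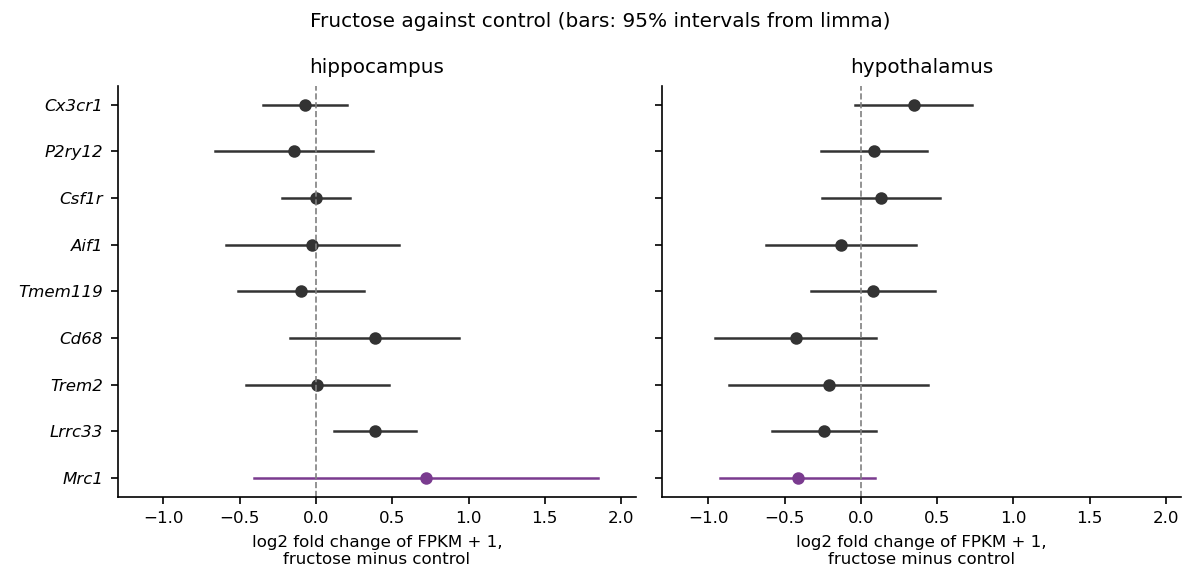
Log2 fold change of each tested member, fructose minus control, with its 95% interval from limma on log2(FPKM + 1), for hippocampus and hypothalamus (horizontal axis, log2), with Mrc1, the border macrophage marker, in purple. Lrrc33 in hippocampus, at 0.39 with an interval of 0.12 to 0.65, is the only one whose interval leaves out 0, and Mrc1 in hippocampus has the widest interval, from -0.40 to 1.85.

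The balance of border macrophage to microglial transcript was taken as the ratio of Mrc1 to Cx3cr1 within each library, which does not depend on how a library was scaled. In hippocampus Mrc1 came to 20.2%, 42.2%, 11.2% and 22.8% of Cx3cr1 in fructose libraries 1 to 4, against 11.0%, 3.83%, 3.44% and 42.5% in control libraries 1 to 4. All fructose libraries lay above controls 1 to 3, and control 4 lay above all of them. The mean log2 ratio was -2.21 ± 0.78 with fructose and -3.50 ± 1.69 in controls (SD, n = 4 each), a difference of 1.29 (exact permutation test, two-sided, p = 0.229, the smallest possible being 0.0286). Without control replicate 4 the difference was 2.04, and without control replicate 3 it was 0.83. In hypothalamus the ratio was 16.2%, 5.44% and 13% with fructose, against 15.8%, 16.7%, 23.0% and 28.5% in controls. Fructose replicates 2 and 3 lay below all controls, and replicate 1 lay just above the lowest of them. The mean log2 ratio was -3.26 ± 0.83 with fructose (n = 3) and -2.30 ± 0.40 in controls (n = 4), a difference of -0.96 (exact permutation test, two-sided, p = 0.114, the smallest possible being 0.0571), and -0.49 without fructose replicate 2. Without both replicate 1 libraries the differences were 1.42 in hippocampus and -1.399 in hypothalamus. Adjusted over both regions, p was 0.229 for each in the exact permutation test. In bulk tissue, fewer cells of a type and less RNA per cell cannot be told apart.

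The ratio of Cd163 to P2ry12 gave differences in mean log2 of 1.61 in hippocampus (exact permutation test, p = 0.257) and -0.18 in hypothalamus (exact permutation test, p = 0.800). Adjusted over both regions, these p-values were 0.514 and 0.800 in the exact permutation test. Cd163 came to 5.73% of P2ry12 in hypothalamus control replicate 4, and to 2.18%, 1.46% and 1.71% in controls 1 to 3. The fructose libraries 1 to 3 held 3.20%, 0.94% and 3.03%. This ratio was not compared without control replicate 4.

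**Figure D3:**
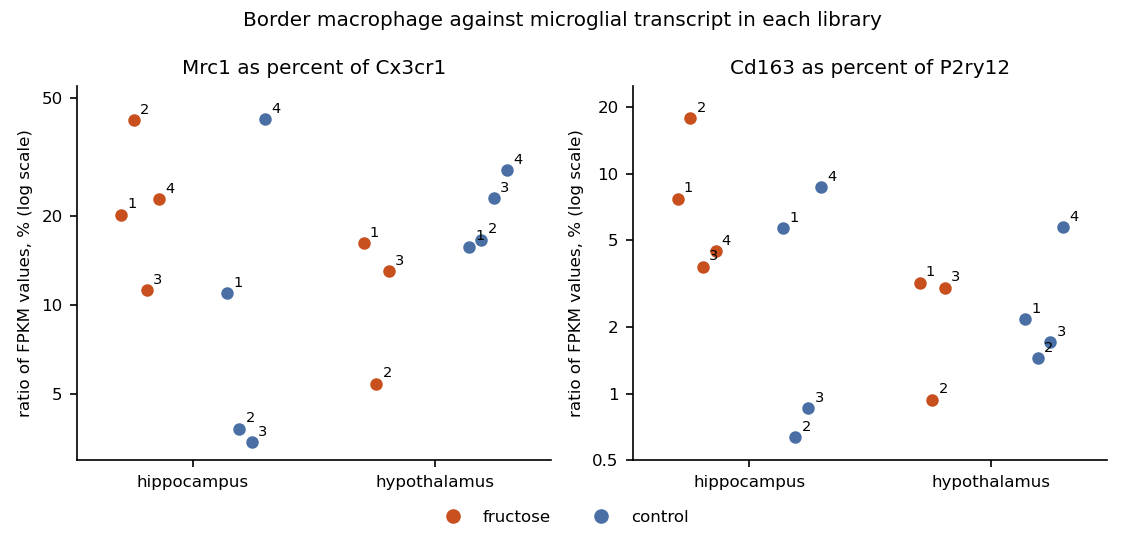
Mrc1 as a percent of Cx3cr1 and Cd163 as a percent of P2ry12 in each library (vertical axes, log scale), with points numbered by replicate and fructose drawn left of control in each region. In hippocampus Mrc1 was 11.2% to 42.2% of Cx3cr1 with fructose and 3.44% to 42.5% in controls, and in hypothalamus 5.44% to 16.2% with fructose and 15.8% to 28.5% in controls.

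The direction of several members differed between regions, and the difference was tested as an interaction (hypothalamus effect minus hippocampus effect) over 9931 symbols. It called 0 (0%), and 229 (2.31%) had an unadjusted p under 0.05. Of the 9 tested members, 2 were among these 229: Lrrc33 differed by -0.63 ± 0.18 (limma, SE; 95% interval -1.0 to -0.25; unadjusted p = 0.00279) and Cd68 by -0.81 ± 0.34 (95% interval -1.53 to -0.10; unadjusted p = 0.0287), both with an adjusted p of 1.00. The Lrrc33 difference uses the hippocampus values whose separation was known when the gene was chosen, so its p is no independent result. With the loci of a symbol summed, the Lrrc33 difference was -0.44. Cx3cr1 differed by 0.42 ± 0.21 (unadjusted p = 0.0595) and Mrc1 by -1.14 ± 0.58 (95% interval -2.38 to 0.10; unadjusted p = 0.0693), again with adjusted p of 1.00 in limma. When limma weighted the libraries by their fit, these 4 members passed, at 0.82 for Cx3cr1 (adjusted p = 0.0215), -1.5 for Cd68 (adjusted p = 0.0215), -0.55 for Lrrc33 (adjusted p = 0.0439) and -1.94 for Mrc1 (adjusted p = 0.0349). Over all symbols, the weighted fit called 336 of 9931. That fit gave hypothalamus fructose replicate 2 a weight of 5.74, against 0.228 and 0.850 for the other fructose libraries of the region, so it rests largely on 1 library. The same fit called 14 of the 16 meningeal fibroblast genes tested, all with negative differences, at -5.58 to -2.03, and 4 of the 5 other border macrophage genes tested, at -2.98 to -1.69, and the part of meningeal tissue in the member calls was not tested. Under the other alternatives the adjusted p in limma ran from 0.626 to 1.00 for Lrrc33 and Mrc1, from 0.887 to 1.00 for Cd68, and stayed at 1.00 for Cx3cr1. Without both replicate 1 libraries the differences were -0.63 for Lrrc33 and -1.31 for Mrc1.

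Other microglial genes lay on both sides of 0, as the members did. Of a list of 20, 16 were tested in each region and 0 passed, with 6 positive and 10 negative log2 fold changes and a median of -0.09 in hippocampus, and 9 positive and 7 negative with a median of 0.00 in hypothalamus. Ltc4s, the leukotriene C4 synthase, averaged 17.4 ± 3.19 FPKM with fructose (n = 3) and 23.9 ± 2.03 FPKM in control hypothalamus (n = 4), without overlap, for a log2 fold change of -0.45 ± 0.15 (limma, SE; unadjusted p = 0.0172; adjusted p = 1.00). P2ry6 in hippocampus and Olfml3 in hypothalamus, named after their values were seen, were also set apart, both lower with fructose. In each region 2 of the 16 tested genes were set apart lower and 0 higher. In limma 0 of the 16 in hippocampus and 3 in hypothalamus had an unadjusted p under 0.05, against 0.808% and 3.14% of all loci. Across libraries of hippocampus and hypothalamus, Olfml3 correlated with Mrc1 at 0.938 and 0.858, and with Cx3cr1 at -0.716 and -0.521. Ltc4s correlated with Mrc1 at -0.400 and 0.846, and with Cx3cr1 at 0.566 and -0.669. Loci set apart in the lower direction made up 0.413% of those tested in hippocampus and 1.58% in hypothalamus. Rgs10 and Selplg overlapped in both regions.

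Other border macrophage genes leaned to opposite sides in the 2 regions, as Mrc1 did. In hippocampus 5 of a list of 20 were tested, and all 5 log2 fold changes were positive with a median of 0.58, while in hypothalamus 7 were tested and all 7 were negative with a median of -0.67. None of them passed the test in either region, and the test of the difference between regions called 0, against 4 when the libraries were weighted (Clec10a, Colec12, F13a1 and Dab2). The lectin gene Clec10a averaged 10.5 ± 4.91 FPKM with fructose and 6.16 ± 5.49 FPKM in control hippocampus (SD, n = 4 each), and 2.25 ± 1.31 FPKM (n = 3) and 4.90 ± 1.40 FPKM (n = 4) in hypothalamus. Its log2 fold changes were 0.93 ± 0.54 and -0.91 ± 0.30 (limma, SE). The endocytic adaptor Dab2 had log2 fold changes of 0.58 ± 0.35 in hippocampus and -0.60 ± 0.24 in hypothalamus, the scavenger lectin Colec12 of 0.61 ± 0.44 and -1.07 ± 0.32, and the chemokine Pf4 of 0.12 ± 0.49 and -0.93 ± 0.66 (limma, SE). Dab2 and Colec12 are also made by vascular and connective tissue cells. Colec12 and the coagulation factor gene F13a1, named after its values were seen, were the list's genes without overlap in hypothalamus. Without both replicate 1 libraries the medians were 0.61 over 5 positive genes in hippocampus and -0.68 over 7 negative genes in hypothalamus. In hippocampus 4 of the 5 were positive without fructose replicate 2 or without control replicate 2, with the median at 0.33 in the second of these fits, and in hypothalamus 6 of the 7 were negative without control replicate 4. The lectin genes Cd209a and Cd209b of this list were listed at 0 in every library of both tables.

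The medians of the pan-macrophage and phagocytic activation lists lay closer to 0. Of the pan-macrophage genes, 12 were positive and 8 negative in hippocampus (median 0.06), and 8 positive and 15 negative in hypothalamus (median -0.09), with 0 called in either. Ctss, a lysosomal protease, averaged 148 ± 9.08 FPKM with fructose and 171 ± 35.7 FPKM in control hippocampus (SD, n = 4 each), and 227 ± 41.5 FPKM (n = 3) and 226 ± 44.8 FPKM (n = 4) in hypothalamus. The Fc receptor gamma chain Fcer1g and the Trem2 partner Tyrobp overlapped in both regions, with log2 fold changes between -0.18 and 0.22. Of the phagocytic activation genes, 8 were positive and 5 negative in hippocampus (median 0.01), and 1 positive and 13 negative in hypothalamus (median -0.10), also with 0 called. The most abundant of these, Apoe, Ctsb, Timp2 and Ctsd, had log2 fold changes between -0.12 and 0.01 in the 2 regions. Which cells of the bulk tissue made these 4 transcripts was not tested. Over all tested genes of this list they ran from -0.74 to 0.85 in hippocampus and from -1.085 to 0.07 in hypothalamus. In the weighted fit of the difference between regions, 2 of its 13 tested genes were called, at -2.23 and -1.42.

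Of the ligands and signalling partners of the members, 9 were positive and 5 negative in hippocampus (median 0.05), and 7 positive and 8 negative in hypothalamus (median -0.01), and 0 were called. Il34, a ligand of Csf1r made by neurons, averaged 30.8 ± 4.94 FPKM with fructose and 25.7 ± 0.286 FPKM in control hippocampus (SD, n = 4 each), without overlap, for a log2 fold change of 0.24 ± 0.12 (limma, SE; unadjusted p = 0.0827; adjusted p = 1.00). In hypothalamus its groups overlapped and the log2 fold change was -0.41 ± 0.27. Cx3cl1, the ligand of Cx3cr1, averaged 361 ± 88.8 FPKM with fructose and 300.1 ± 67.5 FPKM in control hippocampus (SD, n = 4 each), for a log2 fold change of 0.26 ± 0.23. Tgfb1, the cytokine that Lrrc33 tethers, had log2 fold changes of 0.18 ± 0.26 in hippocampus and -0.26 ± 0.23 in hypothalamus.

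Most of the listed blood leukocyte genes averaged under 1 FPKM in both regions. Of the 26 listed, 5 were tested in each region, 4 positive and 1 negative in both, with medians of 0.37 in hippocampus and 0.12 in hypothalamus and 0 called. S100a9, a neutrophil calcium-binding protein, averaged 2.61 ± 0.945 FPKM with fructose and 0.738 ± 0.503 FPKM in control hippocampus (SD, n = 4 each). Its groups did not overlap there, as those of Lrrc33 did not, and its log2 fold change was 1.06 ± 0.24 (limma, SE; unadjusted p = 0.00224; adjusted p = 1.00). In hypothalamus it averaged 2.18 ± 0.670 FPKM (n = 3) and 2.82 ± 2.75 FPKM (n = 4). The summed level of the list ran from 14.8 to 27.5 FPKM with fructose and from 9.36 to 22.0 FPKM in control hippocampus. In hypothalamus it ran from 524 to 2841 FPKM with fructose and from 326 to 3916 FPKM in controls, nearly all of it from Plac8, which averaged 1597 ± 1160 FPKM with fructose (n = 3) and 1652 ± 1556 FPKM in controls (SD, n = 4). The granule protease Elane was listed at 0 in every library. The part of blood cells in the Lrrc33 and Cd68 values was not tested.

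The listed markers of meningeal fibroblasts, the connective tissue cells of the brain's coverings, shifted in the same direction in each region as Mrc1 and the other border macrophage genes tested. All 16 tested genes of that list had positive log2 fold changes in hippocampus (median 0.77) and all 16 had negative ones in hypothalamus (median -1.26), and 0 passed the test in either. In hypothalamus 12 of the 16 had an unadjusted p under 0.05 in limma, against 3.14% of all loci, and 6 were set apart lower, against 1.58% of all loci. In hippocampus 1 had an unadjusted p under 0.05 and 0 were set apart. The list was chosen with earlier results of these data known, and its genes were measured in the same libraries. Its genes therefore do not count as separate results against the share of all loci. The median was 0.47 in hippocampus without control replicate 3 and -0.75 in hypothalamus without fructose replicate 2. The summed level of the list was 370.0, 813, 228 and 333 FPKM in fructose hippocampus libraries 1 to 4, against 248, 82.7, 74.5 and 544 FPKM in controls 1 to 4. The controls with the lowest sums, 2 and 3, also had the lowest Mrc1 and Cd163, and control 4 and fructose 2, with the highest sums, had the highest. In hypothalamus the sums were 168, 85.4 and 325 FPKM with fructose, against 402, 305, 455 and 573 FPKM in controls. Fructose replicate 2 had the lowest sum of the region and also the lowest Mrc1 and Cd163, and control replicate 4 had the highest of all 3 measures. Cd68 followed the same libraries, lowest in control replicate 3 and highest in fructose replicate 2 in hippocampus, and lowest in fructose replicate 2 and highest in control replicate 4 in hypothalamus. Cx3cr1 ran the other way at these ends. In hippocampus it was highest in control replicate 3 and lowest in fructose replicate 2, and in hypothalamus highest in fructose replicate 2. Between the ends Cx3cr1 did not follow the sum in each library. In hypothalamus it was 15.7 FPKM in fructose replicate 1, at a sum of 168 FPKM, and 20.3 FPKM in fructose replicate 3, at 325 FPKM. In hippocampus it was 16.3 FPKM in control replicate 2, at 82.7 FPKM, and 16.9 FPKM in fructose replicate 1, at 370.0 FPKM. Among the list's most abundant genes, the transporter Slc6a20 had log2 fold changes of 1.59 ± 0.89 in hippocampus and -1.84 ± 0.44 in hypothalamus, Col1a1 of 1.79 ± 0.72 and -1.26 ± 0.56, Dcn of 0.59 ± 0.54 and -0.84 ± 0.39, and Slc13a4 of 0.77 ± 0.60 and -2.24 ± 0.80 (limma, SE). Col1a2 was listed at 0 in every library. The part of meningeal tissue in the Mrc1, Cd163, Cd68 and Cx3cr1 values and in the ratio was not tested.

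**Figure D4:**
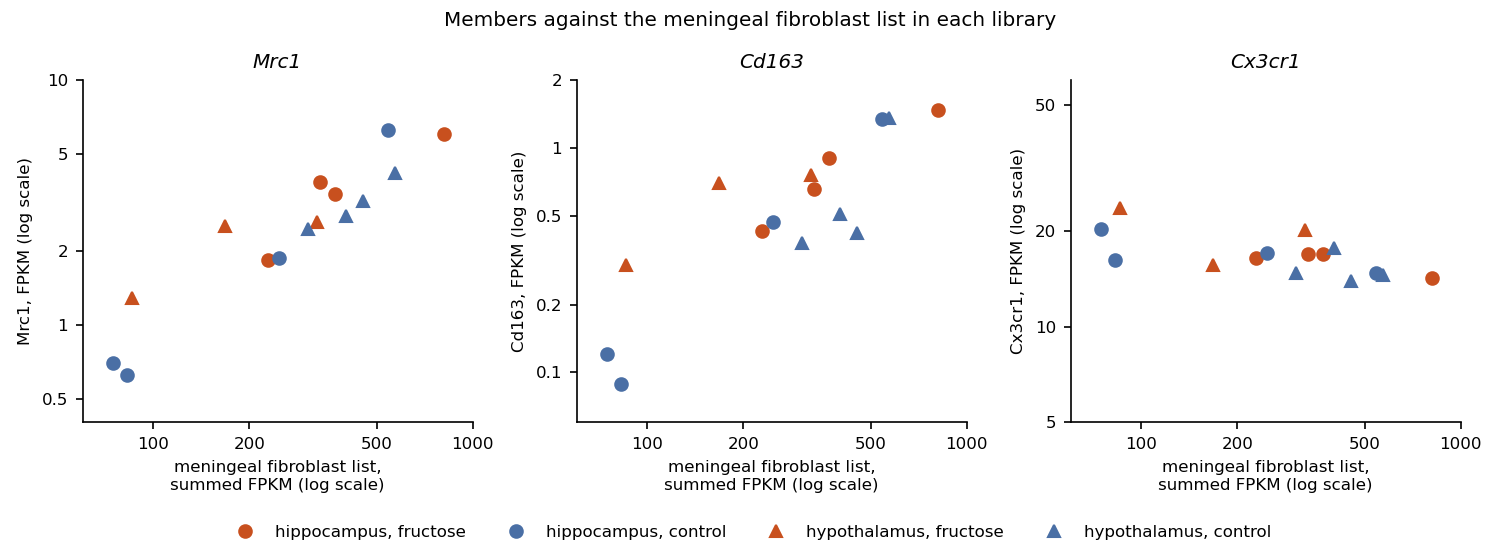
FPKM of Mrc1, Cd163 and Cx3cr1 (vertical axes, log scale) against the summed FPKM of the meningeal fibroblast list (horizontal axes, log scale) in each of the 15 libraries, with circles for hippocampus and triangles for hypothalamus, and fructose and control in separate colours. Mrc1 was lowest in the hippocampus controls with sums of 74.5 and 82.7 FPKM and highest at sums of 544 and 813 FPKM. In hippocampus Cx3cr1 was 14.2 FPKM at the sum of 813 FPKM and 20.3 FPKM at 74.5 FPKM. In hypothalamus it was 23.8 FPKM at that region's lowest sum, 85.4 FPKM, and 15.7 FPKM at the next lowest, 168 FPKM.

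The genes whose pattern over the libraries was most like that of Mrc1 were taken from 9930 symbols by the lower of the Pearson correlations within hippocampus (8 libraries) and within hypothalamus (7 libraries). They were Emp1, with r of 0.985 and 0.954, the retinoic acid enzyme Aldh1a2 (0.949 and 0.964), the secreted glycoprotein gene Fstl1 (0.946 and 0.964), Mpzl2 (0.971 and 0.943) and Emp3 (0.935 and 0.939). Aldh1a2 is on the meningeal fibroblast list. For Cx3cr1 they were the urea transporter Slc14a1 (0.874 and 0.954), the sorting receptor Sorcs2 (0.863 and 0.950), Sema4d (0.905 and 0.850), Ptar1 (0.898 and 0.848) and Myo10 (0.911 and 0.846). Among the members, likeness to Cx3cr1 is given as the rank, with r in hippocampus and in hypothalamus. Tmem119 came at rank 621 (0.577 and 0.394), P2ry12 at rank 1217 (0.259 and 0.685) and Csf1r at rank 1250 (0.254 and 0.856). Trem2 came at rank 4189 (-0.097 and -0.068), Lrrc33 at rank 7216 (-0.134 and -0.385) and Aif1 at rank 7667 (-0.44 and 0.17). At the far end were Mrc1, at rank 9684 with r of -0.720 and -0.779, and Cd68, at rank 9826 with r of -0.832 and -0.741. In likeness to Mrc1, Cd68 came at rank 165, with r of 0.759 and 0.946, Lrrc33 at rank 506 and the other tested members at rank 3191 or beyond. These correlations describe libraries that share region, scaling and treatment groups.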

How the data were processed

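RNA was measured by sequencing of poly-A selected RNA on an Illumina instrument, per the labels' protocols, which name CASAVA 1.8.2. The deposited FPKM values were made by the authors with TopHat, Bowtie, Cufflinks, Cuffdiff, TopHat2 and Bowtie2 on build rn5, per the submitters' processing notes, which give no versions for these. Each table pairs a locus with a symbol and was normalized on its own. Read counts are not given, so count models could not be used and depth cannot be stated.

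The 16 labelled samples were grouped by tissue and treatment, and 15 have columns. In each region, every locus averaging 1 FPKM or more entered a limma fit (version 3.58.1, R 4.3.3) of log2(FPKM + 1) on treatment alone. The prior variance followed a trend, and p-values were adjusted by Benjamini-Hochberg over all loci, with 0.05 as threshold. A fold change on this scale understates the change of low genes. The difference between regions was an interaction over symbols tested in both tables, each centred first. Ratios within a library were compared by an exact permutation test. The script was tested on simulated data, with normal values drawn independently for each locus and library. Such data hold no shared deviation like that of the replicate 1 libraries, so that test does not cover it. Every member locus had the status OK in all libraries. Figures were drawn with matplotlib 3.10.9.

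The members and the 12 other gene lists were chosen with earlier results of these data known. Besides the members, the text names up to 4 genes of each list with the highest mean FPKM, any that passed the test, genes listed at 0 that define a list, and the 5 symbols most like Cx3cr1 and Mrc1. A gene that the rule names is not reported here. Lists of choroid plexus, red blood cells and other brain cells were also summed, and 0 of their genes passed in either region. Replicate numbers come from the labels. Deviations from the group mean in same-numbered fructose and control libraries correlated at 0.89, 0.21, 0.48 and 0.41 in hippocampus. In hypothalamus the values were 0.85, 0.49 and 0.46. The group means included the replicate 1 libraries, which stood apart. Libraries of different numbers were not compared, so these correlations cannot show whether the numbers stand for pairs. A fit with the number as a block was made as an alternative, while the main fit used treatment alone. Alternatives were other pseudocounts, filters, quantile normalization, library weights, summed loci and leaving out libraries.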

Additional observations from a re-analysis of the deposited data

Results flagged for a closer look

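In 3 of 33 groups of 4 libraries examined, a member's highest or lowest library was set off from the rest of its group by a gap, as a share of the group's whole range, above Dixon's 95% critical value for 4 samples. Chance flags about 1 in 20 groups. Tmem119 measured 12.35 FPKM in hippocampus fructose replicate 1, and the gap to the other fructose libraries made up 0.948 of the range. Trem2 measured 5.571 FPKM in hippocampus control replicate 1, below the other controls, with a gap of 0.85 of the range. Both are replicate 1 libraries, which stood apart across all loci. Cd163 measured 1.354 FPKM in hypothalamus control replicate 4, above the other controls, with a gap of 0.863 of the range, and that library also had the highest summed level of the meningeal fibroblast list in its region.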

How the results depend on the processing

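Over 505 alternative fits of the 9 tested members, 476 kept direction and side of the threshold, 25 changed sign, 4 passed the threshold only under the alternative and 0 lost a call. The 4 were the region differences of Cx3cr1, Cd68, Lrrc33 and Mrc1 with library weights. Every sign change was of a log2 value that was within its error of 0. Trem2 in hippocampus was -0.005 with quantile normalization and -0.108 without both replicate 1 libraries. Aif1 was 0.196 in hippocampus and 0.093 in hypothalamus with library weights, and without both replicate 1 libraries it was 0.003 in hypothalamus and 0.013 for the difference between regions. Csf1r in hippocampus was 0.012 with loci summed. Leaving out 1 library at a time gave log2 values from -0.23 to 0.193 for Aif1 in hippocampus, -0.275 to 0.029 for Aif1 in hypothalamus and -0.325 to 0.099 for its difference between regions. It gave -0.032 to 0.037 for Csf1r, -0.137 to 0.008 for Cx3cr1 and -0.116 to 0.207 for Trem2 in hippocampus, and -0.063 to 0.207 for P2ry12 and -0.05 to 0.232 for Tmem119 in hypothalamus. The cause was not tested.

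The count of loci called in hypothalamus was 0 at a mean FPKM of at least 5, 2 with the replicate block and 2 without both replicate 1 libraries, and 0 to 2 with 1 library left out. In hippocampus it was 0 to 1 with 1 library left out. For the difference between regions it was 336 with library weights and 0 to 1 with 1 library left out. With the replicate block, which drops the unpaired hypothalamus control replicate 4, the ratio of Mrc1 to Cx3cr1 differed by 1.29 in hippocampus and -0.80 in hypothalamus, and no member's call changed. With 1 library left out the ratio's difference ran from 0.832 to 2.041 in hippocampus and from -1.276 to -0.49 in hypothalamus. Counts at an unadjusted p under 0.05 ranged from 42 to 658 against 92 in hippocampus, from 146 to 2099 against 361 in hypothalamus and from 95 to 1829 against 229 for the difference between regions, highest with library weights in each. With 3 or 4 libraries a group and no depth, members near 1 FPKM carry the least precise values.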
